A study of Mus musculus with 4 samples.

Results

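The largest class of RNA polymerase II (Pol II) peaks in this series was short and shared no base with any FoxP3 peak. FoxP3 is the lineage-defining transcription factor of regulatory T cells. These short FoxP3-free peaks were chosen by their measured width, overlap and spacing: they are Pol II peaks of 800 bp or less that shared no base with a peak of either FoxP3 list. Pol II peaks in a cluster of 4 or more, joined across gaps of up to 12500 bp, were left out. These 3 criteria left 9125 of the 17632 Pol II peaks, or 51.8% (Wilson 95% interval 51.0 to 52.5), among 31712 peaks in the 3 lists together. Of the Pol II peaks that met the limits on width and spacing, 3663 shared a base with a FoxP3 peak. A further 2005 peaks met all but the width limit, and 901 met all but the limit on clustering.

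Chromatin immunoprecipitation with sequencing (ChIP-seq) was performed on primary CD4+ conventional T cells from lymph nodes of C57BL/6 mice aged 6 to 8 weeks. Activation was through CD3 and CD28 on beads, with 20 U/ml of interleukin-2. Pol II was precipitated with the N20 antibody from a culture labelled as transduced with FLAG-FoxP3 and GATA1, although its short sample description names only activated CD4 cells. FLAG-tagged FoxP3 was precipitated with anti-FLAG M2 from cells transduced with FLAG-FoxP3 and GATA1, which gave 9011 peaks, and from cells transduced with FLAG-FoxP3 alone, which gave 5069. The whole cell extract, labelled as having no transduced factor, served as the control, and what it contained was not examined. Each group had 1 library, so no difference below has a replicate check or a test across samples. A Pol II precipitation from cells labelled as lacking FoxP3 was not analysed here, so an effect of FoxP3 on these sites could not be examined. The lists give no read counts, so the depth is unknown, and intervals cover counting error over peaks only.

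Pol II transcribes protein-coding genes and many non-coding RNAs. In ChIP-seq of mammalian cells it is usually most abundant just downstream of active start sites, where it can pause, and it spreads at lower density over gene bodies and past their ends. It is also found at active enhancers. The N20 antibody was raised against the amino-terminal part of the large Pol II subunit, so it does not depend on the phosphorylation of the carboxy-terminal tail that accompanies elongation. A peak in this list therefore does not tell a paused from an elongating polymerase. The genes at these positions and their DNA sequence were not analysed here. Regions are named by position, with a first base of 1, in the build of the peak lists. That build is uncertain: the submitters' notes name mm8, but some peaks lie past the ends of mm8 chromosomes as generally known.

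Short FoxP3-free peaks were weak by the score deposited with each peak. In the usual layout of the caller's files that score is 10 times the negative log10 of a p-value, and it can be compared only within a list. The lowest score was 50.02, the median 100.01 (95% interval 99.1 to 100.7), the quartiles 82.0 and 123.6, and the highest 948.2. Wide FoxP3-free peaks, those over 800 bp outside clusters, had a median of 197.8 (193.1 to 201.8). That was 97.7 score units above the short peaks, or 1.98 times as high. Unclustered Pol II peaks that shared a base with FoxP3, of any width, had a median of 155.7 (153.0 to 158.5), and peaks in dense clusters 112.4 (109.8 to 116.7). The width limit bears on these differences, since each of the other classes held wider peaks. The upper width quartile was 644 bp for short and 1098 bp for wide FoxP3-free peaks, 835 bp with FoxP3 and 798 bp in dense clusters. Score and width rose together among wide FoxP3-free peaks, with a Spearman correlation of 0.61 over 2005 peaks. Among the short ones that correlation was 0.23 over 9125 peaks. Score and width of a peak come from the same reads.

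**Figure D1:**
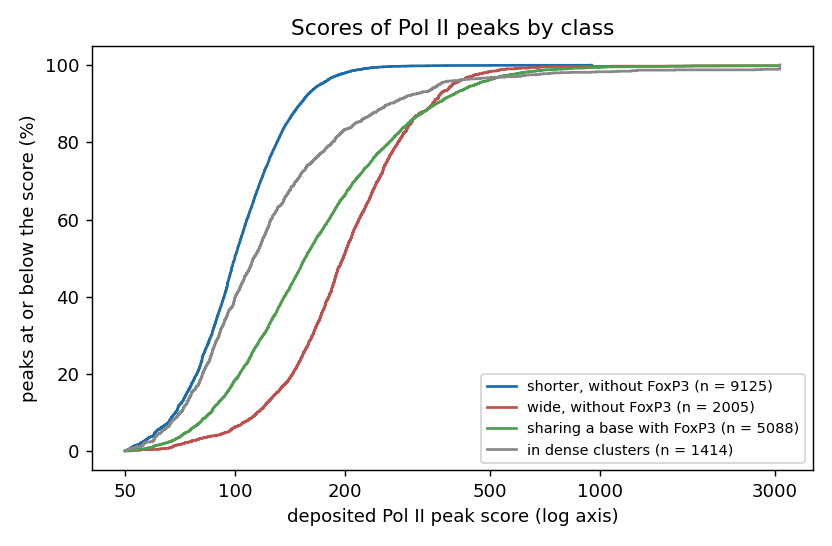
Cumulative share of Pol II peaks (vertical axis, %) at or below a deposited score (horizontal log axis), with 1 line for each of the 4 classes. The line of the 9125 short FoxP3-free peaks lies to the left, with a median of 100.01 against 197.8 for the wide FoxP3-free peaks.

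The score ranks of these peaks were low but not confined to the bottom of the list. Short FoxP3-free peaks made up 74.4% (72.3 to 76.4) of the decile of Pol II peaks with the lowest scores and 66.9% (64.7 to 69.1) of the fifth decile from the bottom. They made up 12.7% of the ninth decile and 1.98% (1.43 to 2.75) of the top decile, where 35 of them remained. A score of 150 or more was reached by 949 of the short FoxP3-free peaks, or 10.4%, and by 76.9% of the wide ones. The Pol II list was deposited down to a lower score than the FoxP3 lists, whose lowest values were 70.56 with GATA1 and 70.75 without. The value 70.56 serves here only as a cut within the Pol II list, not as a comparison of strength between lists. Of the short FoxP3-free peaks, 1092 scored below 70.56, or 11.97% (11.3 to 12.6). The share was 1.65% (1.17 to 2.30) for the wide ones and 3.56% (3.08 to 4.10) for those with FoxP3. In dense clusters the share was close to that of the short peaks, at 9.69% (8.25 to 11.34). Over all Pol II peaks it was 8.18% (7.79 to 8.60). Together the short FoxP3-free peaks covered 5.51 Mb, or 45.1% of the 12.2 Mb under Pol II peaks.

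Among short unclustered Pol II peaks, the higher the score, the fewer were free of FoxP3. The overlap chose the peaks, so these shares are a description. Below a score of 70.56, 167 of 1259 peaks shared a base with FoxP3, or 13.3% (11.5 to 15.3). The share was 16.9% from 70.56 to 100, 26.5% from 100 to 150 and 49.4% from 150 to 200. Between 200 and 300 it was 75.2% (71.7 to 78.3), which left 164 FoxP3-free peaks. At 300 or more, 238 of 256 short peaks had a FoxP3 peak, or 93.0% (89.2 to 95.5), and 18 did not. Wide unclustered peaks showed a flatter course, from 29.8% (18.7 to 44.0) below 70.56 over 29.8% between 150 and 200 to 62.4% (59.1 to 65.7) at 300 or more. From a score of 150 upwards the short Pol II peaks thus had FoxP3 more often than wide ones of the same band, and below 100 less often, with intervals that did not overlap. From 100 to 150 the shares were 26.5% (25.3 to 27.8) and 30.5% (26.6 to 34.8), whose intervals overlapped. All 3 lists were called over the same extract lane, as their names show, and the part of that shared control in these overlaps was not tested.

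**Figure D2:**
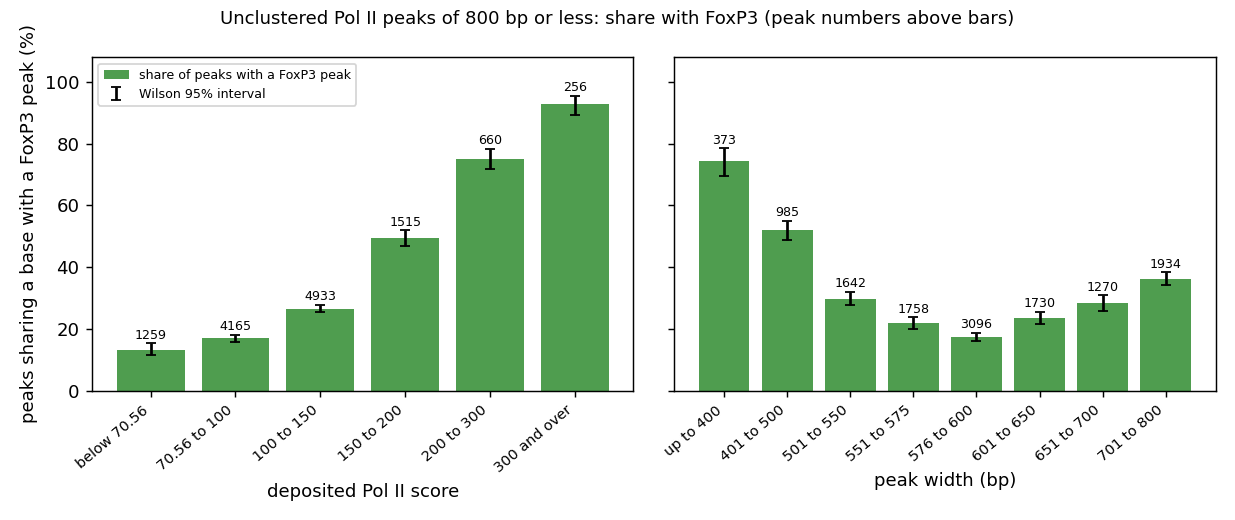
Share of unclustered Pol II peaks of 800 bp or less that shared a base with a FoxP3 peak (%), by Pol II score on the left and by peak width in bp on the right. Bars carry Wilson 95% intervals and the number of peaks. The share climbed from 13.3% to 93.0% with score, and was lowest, 17.4%, at widths over 575 and up to 600 bp.

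Widths were piled up at particular values. The median short FoxP3-free peak was 591 bp wide (quartiles 563 and 644), the commonest width was 596 bp, and 43.1% of these peaks were over 550 and up to 600 bp wide. The number broke off at 600 bp: 1266 peaks were 590 to 599 bp wide and 326 were 600 to 609 bp wide. Short peaks with FoxP3 had 25.1% of their number over 550 and up to 600 bp. A smaller group stood at 380 to 389 bp, with 0.69% of the short FoxP3-free peaks and 5.49% of the short peaks with FoxP3. The FoxP3 alone list had its commonest width, 389 bp, in the same place, and 15.3% of its peaks were 400 bp wide or less. In the list with GATA1 that share was 6.03%. The caller's settings behind such widths are not stated in the labels.

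**Figure D3:**
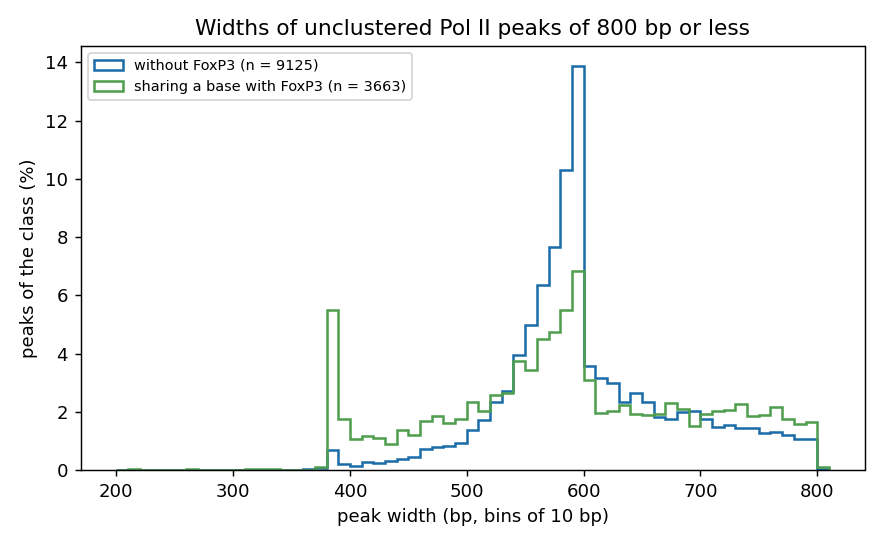
Widths of unclustered Pol II peaks of 800 bp or less, in bins of 10 bp (horizontal axis), as a share of each class (%). The 9125 peaks without FoxP3 are concentrated just under 600 bp, while the 3663 peaks with FoxP3 have a second concentration at 380 to 389 bp.

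The narrowest FoxP3-free peaks scored higher than those of middling width. The 96 peaks of 400 bp or less had a median score of 144.5, while the 2558 peaks over 575 and up to 600 bp had the lowest median, 88.4. From there the median rose again to 128.8 over 700 bp. Narrow peaks also stood alone more often: 87 of the 96 had no other Pol II peak within 12500 bp, or 90.6% (83.1 to 94.99), against 62.4% over 575 and up to 600 bp. Narrow Pol II peaks mostly had a FoxP3 peak. Of the 373 unclustered ones of 400 bp or less, 277 did, or 74.3% (69.6 to 78.4), and 159 of these touched both FoxP3 lists. Over 400 and up to 500 bp the share was 51.9%, and over 575 and up to 600 bp it was 17.4% (16.1 to 18.8). The excess at 400 bp or less held within scores of 100 to 150, where 82 of 129 such peaks, or 63.6%, had FoxP3 against 22.4% over 550 and up to 600 bp. It was not seen from 200 to 300, where 85.9% of 64 narrow peaks and 90.8% of 65 peaks over 550 and up to 600 bp had FoxP3. Narrow FoxP3-free peaks thus shared their width with peaks that mostly touched FoxP3. Whether a FoxP3 peak at these sites fell under the threshold of its list was not tested.

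Peaks just inside and just outside the width limit had nearly the same median score. The 85 FoxP3-free peaks of 791 to 800 bp had a median score of 140.1 (quartiles 123.3 and 176.6), and the 86 of 801 to 810 bp had 145.1 (125.0 and 165.5). On either side of the cluster limit, the 839 short FoxP3-free peaks in groups of 3 had a median score of 98.8, and the 514 left out because their cluster held 4 had 97.4. The widest peaks inside the limit were 4 of 800 bp and 1 of 799 bp. The 800 bp peaks lay at chr7:65739042-65739841 (score 243.5), chr3:8740482-8741281 (score 194.7), chr4:119164848-119165647 (score 181.8) and chr5:146830207-146831006 (score 136.0). The fifth lay at chr8:63702489-63703287 (score 185.5).

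The strongest short FoxP3-free peak lay at chr2:69193468-69193886, was 419 bp wide and scored 948.2, rank 63 in the Pol II list. Its nearest FoxP3 peak was 100713 bp away with GATA1 and 466932 bp away without. The next, at chr10:95539995-95540684, was 690 bp wide and scored 735.8, with FoxP3 peaks at 78969 and 259411 bp in the same order. The nearest other Pol II peaks of these sites were themselves short and FoxP3-free and scored only 81.4 and 137.3. These neighbours lay 20207 and 32739 bp away, so both strong sites were solitary at the limit of 12500 bp. The median gap of all short FoxP3-free peaks to the next Pol II peak was 22978 bp. The distances of both sites to the nearest FoxP3 peak lay between the median of all short FoxP3-free peaks, 53121 bp, and the upper quartile, 110878 bp.

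The scores fell quickly behind them. A 717 bp peak at chr5:60433731-60434447 scored 499.8, and a 671 bp peak at chr13:58869380-58870050 scored 499.7. Both FoxP3 lists were over 100 kb away from each, at 285635 and 294614 bp from the first and at 162646 and 162947 bp from the second. The latter peak had its nearest Pol II neighbour at 162818 bp, and that neighbour carried FoxP3. Weaker still were the peaks at chr2:5299931-5300605 (score 435.3) and chr12:110686358-110687139 (score 361.3). They lay 103374 and 83064 bp from a FoxP3 peak with GATA1 and over 400 kb, at 402656 and 407881 bp, from the nearest without. Another of the 10 strongest lay on chromosome 18, and its position is not printed.

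A pair of the 10 strongest lay between Pol II peaks that carried FoxP3. The peak at chr2:57071156-57071897 (score 420.1) was the middle of a group of 3. It lay 1197 bp from a FoxP3 peak with GATA1 and 2653 bp from a FoxP3 alone peak. On one side of it was a 1068 bp Pol II peak at chr2:57074458-57075525 that scored 932.5 and carried FoxP3 of both lists, and on the other a 709 bp peak at chr2:57069080-57069788 that scored 161.0 and carried FoxP3 of the list with GATA1 only. The peak at chr12:20707743-20708453 (score 359.8) had the same arrangement, at 1546 and 2030 bp from the FoxP3 lists. A 1067 bp peak of score 889.8 at chr12:20704941-20706007 with FoxP3 of both lists lay on one side, and a 770 bp peak of score 271.4 at chr12:20710007-20710776 with FoxP3 of the GATA1 list only on the other. In both groups the FoxP3-free peak was intermediate in score between its neighbours.

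The narrowest of the whole set was also among the 10 strongest, a 208 bp peak at chr1:34378786-34378993 with a score of 378.9. FoxP3 peaks of both lists lay at similar distances from it, 45262 bp with GATA1 and 45370 bp without. The other 4 of the 5 narrowest were 318 to 355 bp wide. They lay at chr15:84966528-84966845 (score 196.9), chr15:32071343-32071677 (score 123.2), chr8:80212760-80213109 (score 139.0) and chr3:100351448-100351802 (score 130.7). Each of the 5 had no other Pol II peak within 12500 bp.

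Most short FoxP3-free peaks were far from FoxP3, and not farther than the wide ones. The median distance from edge to edge to the nearest FoxP3 peak of either list was 53121 bp (51253 to 54630), with quartiles of 21428 and 110878 bp. For wide FoxP3-free peaks it was 52696 bp (49684 to 56273), so the intervals overlapped. A FoxP3 peak lay within 10 kb of 1205 short FoxP3-free peaks, or 13.2% (12.53 to 13.9), and of 11.8% (10.5 to 13.3) of the wide ones. Within 100 kb the shares were 71.7% and 73.7%. A p-value for this comparison would need replicate libraries.

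The list with GATA1 was the nearer for 69.0% of short FoxP3-free peaks and the FoxP3 alone list for 29.0%. The median distance was 65648 bp (63519 to 67925) for the former and 111972 bp (108125 to 114701) for the latter. The list with GATA1 is the longer, and the order turned when only its highest-scoring peaks were kept, to equal length. The 5069 highest-scoring peaks with GATA1 lay at a median of 129160 bp (125505 to 133972). Of short FoxP3-free peaks, 5.39% were within 10 kb of them, against 6.47% (5.98 to 6.99) for FoxP3 alone. The FoxP3 alone list kept its low-scoring peaks, so length and score selection changed together, and their separate parts were not tested.

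**Figure D4:**
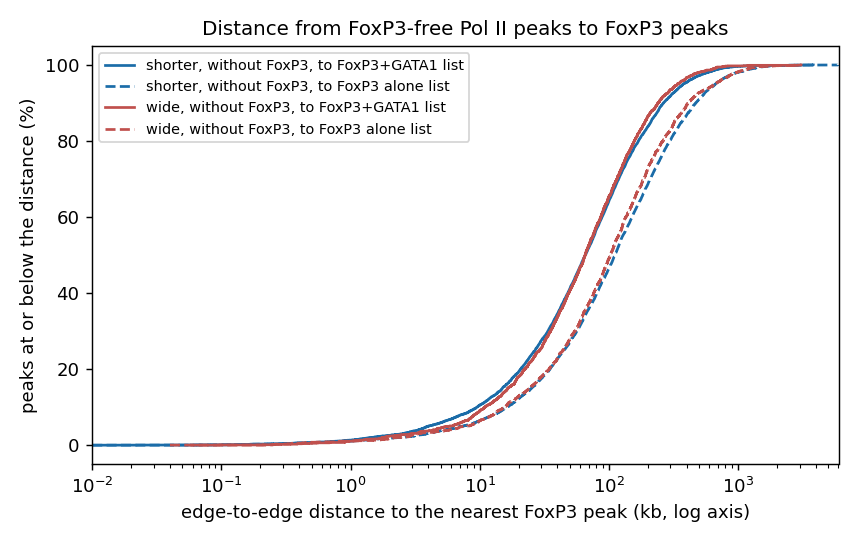
Cumulative share of FoxP3-free Pol II peaks (vertical axis, %) by distance in kb to the nearest FoxP3 peak (horizontal log axis), for short and wide peaks and for each FoxP3 list. Short and wide peaks ran close together, with medians of 65648 and 65598 bp to the list with GATA1.

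The score of a short FoxP3-free peak said little about its distance from FoxP3. When these peaks were divided by score into 10 equal parts, in the lowest part the median distance was 48466 bp (42867 to 52695), and in the highest part it was 60934 bp (55305 to 65157). The shares within 10 kb were 14.1% (12.02 to 16.5) and 12.2% (10.2 to 14.4). Over all 9125 peaks the Spearman correlation of score and distance was 0.06.

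Near misses were few. A FoxP3 peak lay within 1 kb of 188 short FoxP3-free peaks, or 2.06% (1.79 to 2.37), with 124 near the list with GATA1, 98 near the FoxP3 alone list and 34 near both. These neighbours were ordinary FoxP3 peaks by score. The 122 with GATA1 had a median of 188.7, against 195.2 in their whole list, and the 96 without had 427.5 against 425.5. Of the 122, 67 overlapped another Pol II peak, or 54.9% (46.1 to 63.5), and of the 96, 59 did, or 61.5% (51.5 to 70.6). In the whole lists these shares were 49.7% and 67.5%.

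The 5 nearest were separated from FoxP3 by at most 10 bp. The peak at chr4:126990889-126991431 (score 95.7) ended right before a FoxP3 peak with GATA1 that began at 126991432, with no base between them and none shared. That FoxP3 peak scored 134.3 in its list. The peaks at chr10:59700541-59701179 (score 103.3) and chr15:102300547-102301130 (score 104.6) were 3 and 6 bp from a FoxP3 alone peak. Those at chr4:139154702-139155400 (score 112.6) and chr11:87860636-87861232 (score 97.7) were 8 and 10 bp from a FoxP3 peak with GATA1. The peak on chromosome 10 lay 195 bp from a 388 bp Pol II peak at chr10:59699958-59700345 that carried FoxP3 and scored 180.8. Absence of a shared base at such sites rests on where the caller set the edges.

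At the other end, the 5 farthest peaks were each more than 1.5 Mb from FoxP3. A 501 bp peak at chrX:30134653-30135153 scored only 55.7 and was 3.38 Mb from the nearest FoxP3 peak. The next Pol II peak, at chrX:31247470-31248023 (score 92.0), was 2.27 Mb from FoxP3, and these 2 peaks were 1.11 Mb apart. A 516 bp peak at chr7:10774633-10775148 (score 114.4) had FoxP3 at 2.83 Mb and another Pol II peak at 1.90 Mb. The peak at chr3:47256720-47257229 (score 187.2) had no FoxP3 within 1.72 Mb, and the 369 bp peak at chr16:52532635-52533003 (score 131.2) none within 1.58 Mb. Chromosome X thus held 2 of the 5, with scores below the median of 100.01.

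Most short FoxP3-free peaks were solitary, about as often as the wide ones. No other Pol II peak lay within 12500 bp of 5974 of them, or 65.5% (64.5 to 66.4). The share was 65.5% (63.4 to 67.6) for wide FoxP3-free peaks and 75.4% (74.2 to 76.6) for unclustered peaks with FoxP3. The median gap to the next Pol II peak was 22978 bp, 22949 bp and 39408 bp in the same order. Pol II peaks with FoxP3 were thus farther from other Pol II peaks than either FoxP3-free set. All 3 sets met the same limit of 3 peaks a group. Over the whole Pol II list, dense clusters included, the solitary share was 63.1% (62.4 to 63.8). Among short FoxP3-free peaks the solitary share went from 62.0% (58.8 to 65.1) in the lowest of 10 score parts to 70.6% (67.6 to 73.5) in the highest.

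The most solitary peaks had megabases free of Pol II around them. The one at chr15:19573336-19573905 (score 106.7) had its nearest Pol II neighbour at 2.01 Mb and a FoxP3 peak with GATA1 at 216591 bp. Those at chr19:51216797-51217430 (score 197.6) and chr8:53495887-53496467 (score 130.6) had Pol II neighbours at 1.78 and 1.69 Mb. FoxP3 peaks with GATA1 lay much closer to them, at 67637 and 161693 bp, so there FoxP3 was called where Pol II was not. The FoxP3 alone list was 1.78 and 2.37 Mb away. The peaks already named on chromosomes 7 and 3 completed the 5, with gaps of 1.90 and 1.73 Mb.

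The remaining 3151 peaks stood in groups of 2 or 3, with 2312 in pairs and 839 in groups of 3. Of the 1575 pairs that held a short FoxP3-free peak, 737 held 2 of them, 534 paired it with a peak with FoxP3 and 304 with a wide FoxP3-free peak. The 737 pairs spanned a median of 5408 bp. Of the 415 groups of 3, 117 held only short FoxP3-free peaks, with a median span of 9938 bp.

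Where a short FoxP3-free peak had a neighbour of another class, the neighbour was usually the stronger, as the higher median scores of those classes in the whole list would give. Next to a wide FoxP3-free peak, the neighbour scored higher in 403 of 438 cases, or 92.0% (89.1 to 94.2), with medians of 185.0 for the neighbour and 98.5 for the short peak. Next to a peak with FoxP3, it scored higher in 574 of 707 cases, or 81.2% (78.1 to 83.9), with medians of 165.7 and 98.0. The median gaps were 3752 and 4808 bp. Between 2 short FoxP3-free peaks the neighbour was higher in 50.2% of 2006 cases, as counting both members of a pair must nearly give. The short peaks themselves had nearly the same median score beside each kind of neighbour.

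Some short peaks lay close to another Pol II peak. The nearest Pol II peak was within 300 bp for 325 of them, or 3.56% (3.20 to 3.96), and within 1 kb for 8.27%. When Pol II peaks were joined across gaps of up to 300 bp, a setting chosen after the data were seen, 279 of the 9125 became part of a wide FoxP3-free region and 46 part of a region with FoxP3. The other 8800 were not joined to any peak, so their class could not change.

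By chromosome, the short FoxP3-free peaks were spread like the rest of the Pol II list, with chromosome 8 the one place where intervals did not overlap. It held 4.93% (4.51 to 5.40) of them and 5.97% (5.49 to 6.50) of all other Pol II peaks. Chromosome 11 held 767 of them, or 8.41% (7.85 to 8.99), and 8.60% (8.03 to 9.22) of all other Pol II peaks, while its part of the span covered by the lists was 4.62%. That was 6.46 peaks per Mb, the highest density of any chromosome, against a mean of 3.73 over the autosomes. They made up between 47.0% (43.8 to 50.1) of the Pol II peaks on chromosome 8 and 55.9% (51.8 to 59.9) on chromosome 16, leaving out chromosome Y with 4 Pol II peaks. Their median score by chromosome ran from 97.3 on chromosome 19 to 107.0 on chromosome X, again without chromosome Y.

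**Figure D5:**
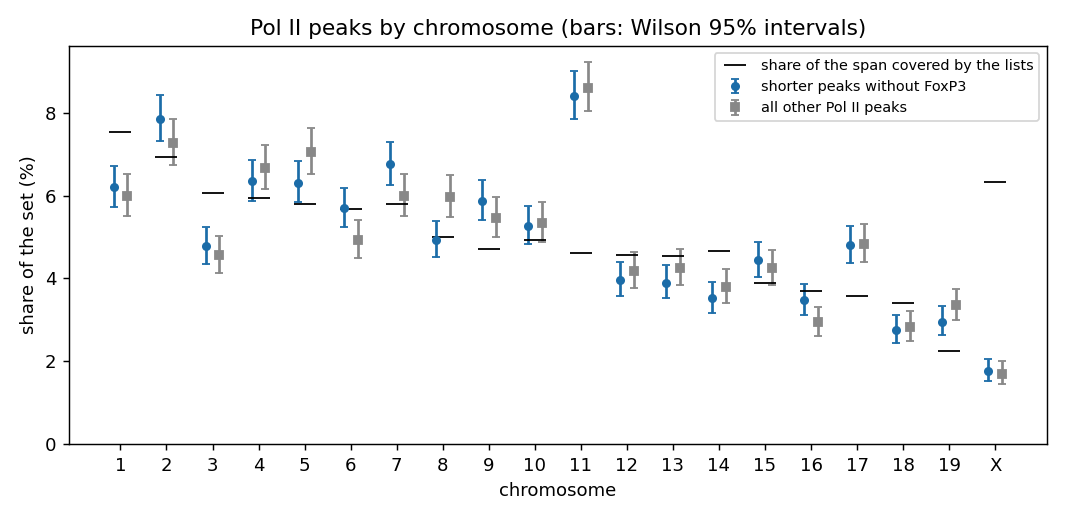
Share of short FoxP3-free peaks (circles), of all other Pol II peaks (squares) and of the covered span (dashes), in %, by chromosome without Y, with Wilson 95% intervals. Chromosome 11 stands highest, at 8.41% and 8.60%, and chromosome X lowest among the chromosomes shown, at 1.76% and 1.70%.

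Chromosome X differed in the make-up of its FoxP3-free peaks. It held 161 short ones, or 0.99 per Mb, and 17 wide ones, so that wide peaks were 9.55% (6.05 to 14.8) of its unclustered FoxP3-free peaks against 18.2% (17.4 to 18.9) on the autosomes. The median distance from a short FoxP3-free peak to FoxP3 was 174926 bp on chromosome X. On the autosomes it ran from 38607 bp on chromosome 17 to 77579 bp on chromosome 13. The share of its Pol II peaks with FoxP3 outside clusters was nonetheless 38.6%, against 28.7% on the autosomes. The labels do not give the sex of the mice.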

How the data were processed

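The authors deposited 1 peak list per ChIP library, not pooled, with a score for each peak and no read counts. FastQC, Bowtie and MACS 1.4.0rc2 and the build mm8 are named per the submitters' processing notes, with no settings. Bowtie's version and read filters are not given there. The list names pair every ChIP lane with a single extract lane. The names of both FoxP3 lists also carry an exponent that the name of the Pol II list lacks, and its meaning is not stated there. The lowest scores were 70.56 and 70.75 in the FoxP3 lists and 50.02 in the Pol II list, so the lists did not end at the same score. Peaks on 8 of 21 chromosomes ended beyond the last gene that the GRCm38.p6 table lists, and it was not used to place genes or sequences.

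Peaks shared when they had at least 1 bp in common, and distances run from edge to edge. Counts used Python 3.11.15, numpy 2.4.6, pandas 2.3.3 and scipy 1.17.1. Members were found again with bedtools 2.31.1, which gave the same 9125, and the code was tested on simulated data, where 100.0% of 5356 planted peaks were put in their class. Shares carry Wilson 95% intervals and medians 95% order-statistic intervals. Neighbouring peaks are not independent, so true intervals may be wider. Named regions are the 10 highest-scoring members, the 5 farthest from and 5 nearest to FoxP3, the 5 farthest from Pol II, and the 5 widest and narrowest. The members, lists and rules were chosen with earlier results of these data known. Alternatives varied the score, the width limit, the cluster gap, the overlap and the FoxP3 list. No comparison called features by a test.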

Additional observations from a re-analysis of the deposited data

How the results depend on the processing

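No paired analysis was possible because there is 1 library per group, and leaving out a replicate could not be done for the same reason. Of 51 alternatives over 8 results, 29 stayed within the reported interval (for the number of peaks, within 1.5 times), and 22 moved. The order of the FoxP3 lists also turned when only the highest-scoring peaks with GATA1 were kept, to equal length. The list with GATA1 was the nearer at full length and the farther after this cut, which changed score and length together. The 3 that joined peaks or equalised list length were chosen after seeing the data. The number of short FoxP3-free peaks was 4840 with Pol II scores of 100 or more, 5656 with a width limit of 600 bp and 5660 with a cluster gap of 50 kb. Their median score was 93.2 and 104.2 with limits of 600 and 1000 bp and 101.8 with the 50 kb gap. The difference to wide peaks was 42.0 and 161.4 with those limits and 78.8 with scores of 100 or more. The share below the FoxP3 lists' lowest score was 15.7% and 10.8% with the 2 width limits. The share within 10 kb of FoxP3 was 10.5% from the list with GATA1, 6.47% from FoxP3 alone and 5.39% from the list with GATA1 at equal length, and the median distances were 65648, 111972 and 129160 bp. The solitary share was 73.8% with scores of 100 or more, 67.1% at the FoxP3 lists' lowest score, 80.2% with a spacing of 5 kb and 28.4% with 50 kb. Chromosome 11 held 6.15% with the 50 kb gap. Each alternative changed which peaks or distances were counted, and the causes of these changes were not tested. The unknown depth limits the list itself: a site without a FoxP3 peak is not shown to lack FoxP3.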

Other observations

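Over the genome, short FoxP3-free peaks were spread widely. Of 2295 windows of 1 Mb that held a Pol II peak, 1957 held at least 1 of them, or 85.3%, with a median of 3 a window. The densest windows were from 79 to 80 Mb on chromosome 10, with 29 short FoxP3-free peaks beside 7 peaks with FoxP3 and 12 in dense clusters, and from 117 to 118 Mb on chromosome 11, with 26. From 25 to 26 Mb on chromosome 7 there were also 26, and no dense cluster. The 69 windows with 15 or more held 1215 of these peaks, or 13.3%. Numbers per window went with those of wide FoxP3-free peaks (Spearman 0.55 over 2295 windows) and of peaks with FoxP3 (0.44), all from 1 Pol II library.

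In 218 windows, short FoxP3-free peaks were the only Pol II peaks. These windows held 429 of them, with a median score of 107.9 (95% interval 103.4 to 111.6), against 99.6 (98.8 to 100.2) in the other windows. The peaks in these windows were thus not the weaker ones by median score. Their median distance to FoxP3 was 197688 bp, against 50492 bp elsewhere, which follows in part from the choice of windows, since these hold no Pol II peak with FoxP3. Up to 10 of these peaks shared such a window, and 13 of the windows held 5 or more.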
